A study of Mus musculus with 4 samples.

Results

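Mitosis and spindle genes encode the machinery that divides a replicated cell: the kinases and cyclins that start mitosis, the kinetochores and motors that move chromosomes on the spindle, the checkpoint that delays their separation, and the proteins that cut the cell apart. A list of 55 such genes was read by symbol in the array annotation, taking probe sets with 1 gene symbol and the brightest probe set of a gene. Of these, 54 had such a probe set, among 19938 genes so named. All 54 reached a log2 intensity of 6, the floor for analysis, on the highest array, as did 12526 genes in all. Ccnb1, the B-type cyclin that partners Cdk1 at mitotic entry, had no probe set carrying its symbol alone and was not analysed here. The genes are grouped below into 7 roles.

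The arrays came from colon epithelial cells of sex-matched C57BL/6 mice aged 6 to 8 weeks, all taken through a model of colitis-associated cancer. Every group received azoxymethane, a colon carcinogen, at 10 mg/kg, and 5 days later 3.5% dextran sulfate sodium in drinking water for 5 days, and cells were taken on day 12. The genotypes were WT, Bmi1ΔIEC, Mel18ΔIEC and Bmi1ΔIEC Mel18ΔIEC (called DKO), where ΔIEC marks a deletion in intestinal epithelial cells. Bmi1 and Mel18 (gene symbol Pcgf2) encode related subunits of Polycomb repressive complex 1, which holds genes silent through chromatin. Each genotype had 1 Mouse Gene 1.0 ST array, so no difference between arrays has a replicate check. The sources used here do not give the promoter driving Cre, the exons deleted or the number of mice behind each array, and they describe no sorting step.

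In the colon, division is confined to the lower part of the crypts, and cells stop dividing as they mature toward the surface. Most genes of mitosis are silent in resting cells and are switched on together late in the cell cycle, after the genes of DNA replication. Many of their promoters carry a CCAAT box, bound by NF-Y, and a cell cycle genes homology region (CHR), through which the MuvB complexes repress the gene in resting cells and, with B-Myb and FoxM1, activate it before mitosis.

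The promoters of the list show these letters. Windows from 250 bases before to 50 bases after a RefSeq start (GRCm38.p6) were on hand for 46 of the 55 genes, 49 windows in all. The 230 bases from 200 before to 30 after the start are printed 5′ to 3′ for 4 genes with both motifs and then for 2 with neither. Capitals mark a CCAAT box (CCAAT, or ATTGG on the other strand) or a CHR (TTTGAA, or TTCAAA). Racgap1 (chr15:99651627-99651856, minus strand) and Kif22 (chr7:127042391-127042620, minus strand) had the largest differences of DKO from WT. Cdc20 (chr4:118437314-118437543, minus strand) and Ccnb2 (chr9:70421525-70421754, minus strand) are the anaphase activator and a mitotic cyclin. Birc5 (chr11:117849037-117849266, plus strand) and Pttg1 (chr11:43425952-43426181, minus strand) hold neither motif, and the first was far lower on DKO while the second had the smallest difference.
Racgap1: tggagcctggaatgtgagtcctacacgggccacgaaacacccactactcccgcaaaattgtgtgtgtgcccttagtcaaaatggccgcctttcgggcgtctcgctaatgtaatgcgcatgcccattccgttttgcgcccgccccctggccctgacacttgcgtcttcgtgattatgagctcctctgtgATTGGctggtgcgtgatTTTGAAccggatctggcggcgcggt
Kif22: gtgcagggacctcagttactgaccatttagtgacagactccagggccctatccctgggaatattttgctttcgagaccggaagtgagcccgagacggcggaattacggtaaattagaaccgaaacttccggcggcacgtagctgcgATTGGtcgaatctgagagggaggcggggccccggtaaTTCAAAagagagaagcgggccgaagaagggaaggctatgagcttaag
Cdc20: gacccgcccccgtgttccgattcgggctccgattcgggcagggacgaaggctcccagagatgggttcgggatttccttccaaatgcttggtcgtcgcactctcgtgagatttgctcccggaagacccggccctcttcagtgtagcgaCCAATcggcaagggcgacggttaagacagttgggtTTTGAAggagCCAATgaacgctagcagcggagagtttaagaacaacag
Ccnb2: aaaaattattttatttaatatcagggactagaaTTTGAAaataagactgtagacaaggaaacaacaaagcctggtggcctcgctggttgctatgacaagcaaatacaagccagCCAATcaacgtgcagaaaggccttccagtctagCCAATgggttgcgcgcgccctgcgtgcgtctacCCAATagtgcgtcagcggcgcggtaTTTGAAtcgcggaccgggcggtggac
Birc5: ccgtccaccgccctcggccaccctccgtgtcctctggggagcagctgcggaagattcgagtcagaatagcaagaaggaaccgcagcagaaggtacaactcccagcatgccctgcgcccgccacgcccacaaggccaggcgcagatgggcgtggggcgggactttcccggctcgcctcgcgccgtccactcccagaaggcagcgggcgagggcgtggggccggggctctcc
Pttg1: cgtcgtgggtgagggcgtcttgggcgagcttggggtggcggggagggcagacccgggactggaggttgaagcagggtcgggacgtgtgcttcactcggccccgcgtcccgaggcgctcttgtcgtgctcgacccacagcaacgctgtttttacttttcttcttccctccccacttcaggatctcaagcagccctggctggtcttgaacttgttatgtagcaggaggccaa
With positions counted by the first base of a match, where 1 is the first base of the transcript and -1 the base before it, Racgap1 had its CCAAT box at -12 and its CHR at 6. Cdc20 carried a CHR between its CCAAT boxes, and Ccnb2 carried 3 CCAAT boxes followed by a CHR just past the start, with another CHR farther upstream.

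Over the list, 35 of 49 windows (71.4%) held a CHR, against 17.9% of all 32851 windows in the table and 12.1% of the windows of genes tested. A CCAAT box was found in 71.4% of the list's windows, against 37.4% of all windows and 36.9% of those of genes tested. Both motifs together stood in 61.2% of the list's windows and 6.95% of all windows, and 2 or more CCAAT boxes in 44.9% against 11.7%. The CHR matches gathered around the start: 55.1% of the list's windows had one beginning between 60 bases before and 30 after it, against 4.85% of all windows. The 46 CHR matches had a median position of -12 and the 72 CCAAT matches one of -63.5. Ect2, Prc1 and Bub3 have overlapping windows, in which the same sites are counted more than once. Counted by gene, 69.6% of the list's genes with a window held a CHR, against 20.2% of all genes with a window. Matches are letters in a fixed window, counted on both strands and also where they share bases, and no match says only that the letters are not in that window. The windows of Birc5, Kif18a, Mad2l1, Melk, Ncaph, Nuf2, Nusap1, Plk4 and Pttg1 held neither motif.

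**Figure D1:**
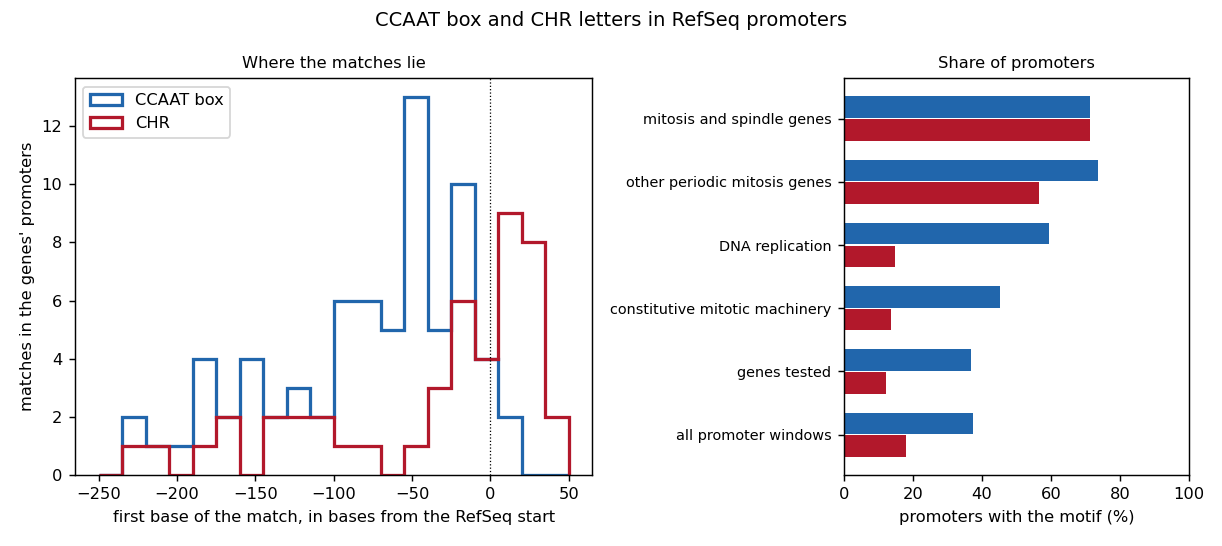
Left, the number of motif matches in the 49 promoter windows of the mitosis and spindle genes by distance of the first base from the RefSeq start (bases, bins of equal width), for the CCAAT box (blue) and the CHR (red). Right, the percentage of windows with each motif in 5 gene sets and in all windows, where the CHR stands in 71.4% of the list and 14.9% of the DNA replication windows.

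Over all genes DKO was the odd array of the 4. Its Pearson correlation with them ran from 0.878 to 0.906, against 0.978 to 0.982 among the others, each across 12526 genes, which are not independent replicates. The closest pair, Bmi1ΔIEC and WT, differed by a scaled median absolute deviation of 0.191 on the log2 scale. Bmi1 read a log2 intensity of 7.64 on DKO, 7.43 on Bmi1ΔIEC, 6.999 on Mel18ΔIEC and 7.25 on WT, and Pcgf2 read 6.81, 6.72, 6.84 and 6.96 in that order. Bmi1 was thus no lower where its deletion is labelled, and Pcgf2 was low by at most 0.24 on any array. Since a probe set can read RNA outside the deleted exons, neither checks the labels. Pan-epithelial markers were high throughout, with medians from 11.46 to 11.77. The WT array carried seminal vesicle transcripts (9 genes, median 9.60, and under 5 on each other array) and the DKO array small bowel transcripts (13 genes, median 9.64 against 6.76 to 7.20). Of the 13 small bowel genes, 9 were at least 1.5-fold higher on DKO than on WT and 1, Fabp6, was lower (-1.16), beside 14.3% and 20.2% of all genes. Because of these transcripts DKO is also compared with the mean of the single deletions, without WT. The single deletions are compared with each other, without WT and DKO.

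Every one of the 54 genes was lowest on DKO, and 50 were lowest on DKO and highest on WT. Among all genes tested, DKO was lowest in 46.0%, WT highest in 23.2%, and both held in 18.2%. The median log2 intensity of the list was 7.47 on DKO, 8.62 on Bmi1ΔIEC, 8.80 on Mel18ΔIEC and 9.06 on WT. Its summed intensity on DKO was 0.355 of that on WT, against 0.799 on Bmi1ΔIEC and 0.825 on Mel18ΔIEC. The sum over all genes tested was 0.990 of the WT value on DKO. RMA, the deposited processing, equalises the arrays by quantiles, so that sum could hardly differ between them. The exceptions to WT being highest were Cdc25b, Espl1 and Spc24, highest on Mel18ΔIEC, and Pttg1, highest on Bmi1ΔIEC. In bulk RNA, fewer dividing cells and less of these transcripts per cell cannot be told apart.

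**Figure D2:**
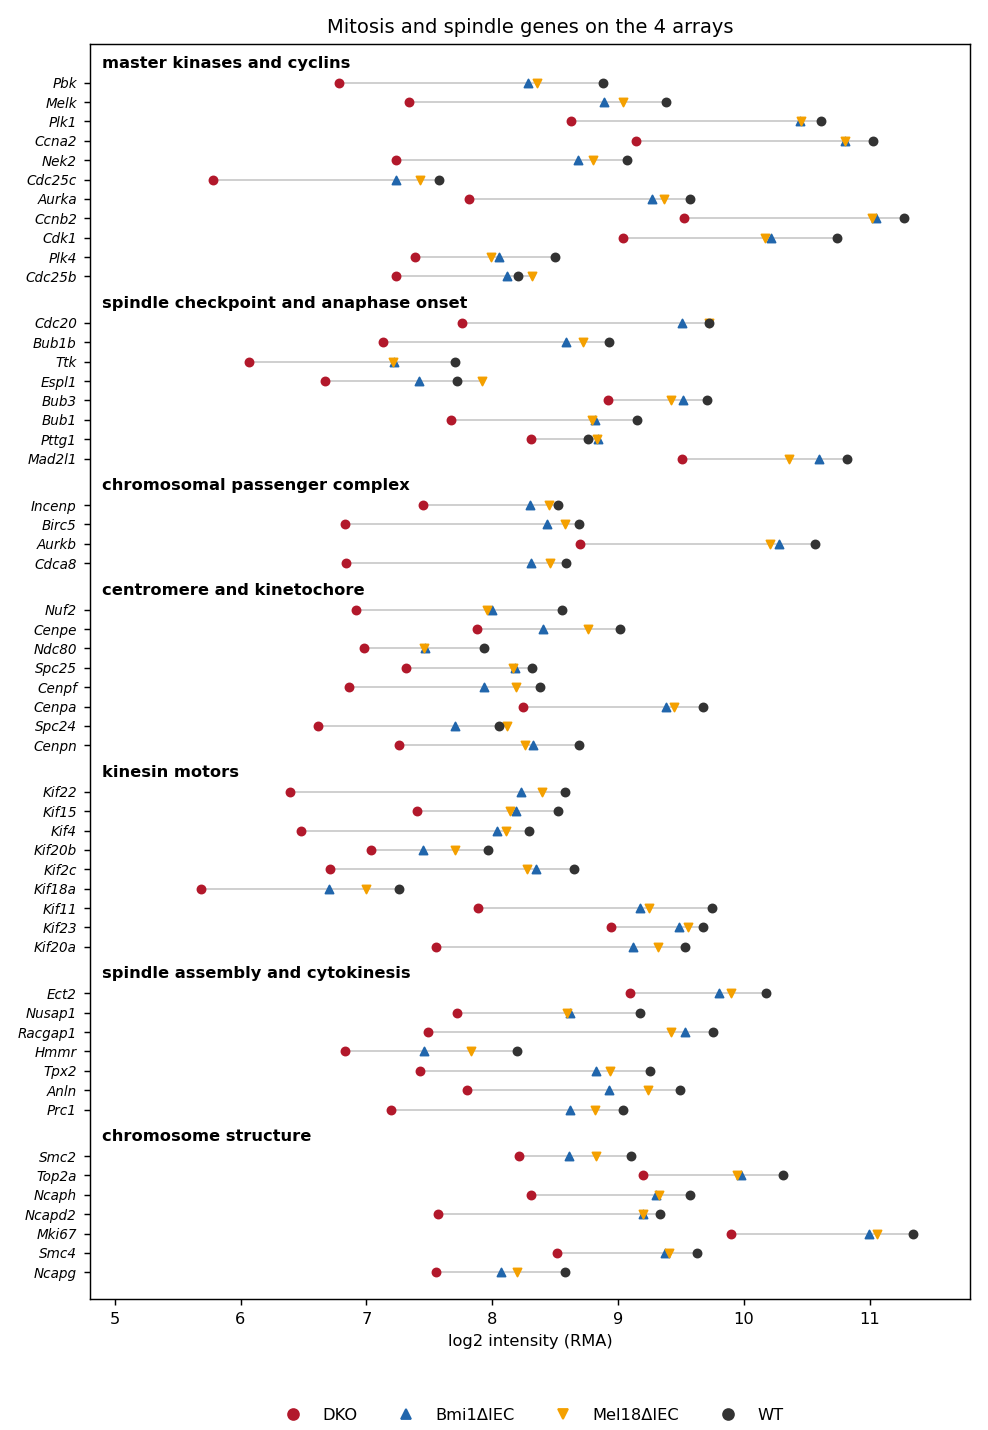
Log2 intensity (horizontal axis) of each of the 54 mitosis and spindle genes on the DKO (red circle), Bmi1ΔIEC (blue triangle), Mel18ΔIEC (orange triangle) and WT (black circle) arrays, 1 array each, grouped by role, with a grey line over the range. The red point is leftmost in all 54 rows and the black point rightmost in 50. The single deletions lie nearer to WT for most genes. Bmi1ΔIEC lies nearer to DKO for Hmmr, Cenpe, Kif20b and Smc2, as does Mel18ΔIEC for Ndc80.

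At the 1.5-fold mark 53 of 54 genes were lower on DKO than on WT and none higher (0), while 20.2% of all genes were lower and 14.3% higher. The median difference was -1.55 on the log2 scale, a 2.92-fold lower level, against -0.05 for all genes tested. Differences ran from -2.27 for Racgap1 to -0.45 for Pttg1, the only gene short of 1.5-fold. Without the WT array, DKO lay below the mean of the single deletions by a median of -1.16, with 47 genes lower and 0 higher, beside 18.8% and 14.0% of all genes. Both comparisons use the DKO array, so they are not independent of each other. Other scalings turned the split over all genes, with 2524 lower and 1794 higher than WT as deposited, 2071 and 2142 after cyclic loess, and 1885 and 2342 with each array centred on its median. For DKO against the single deletions the split was 2358 and 1757 as deposited, 1791 and 2154 after loess and 1806 and 2207 after centring. Centring moved the median of all genes by 0.14 for DKO against WT, and the list's median then stood at -1.40.

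**Figure D3:**
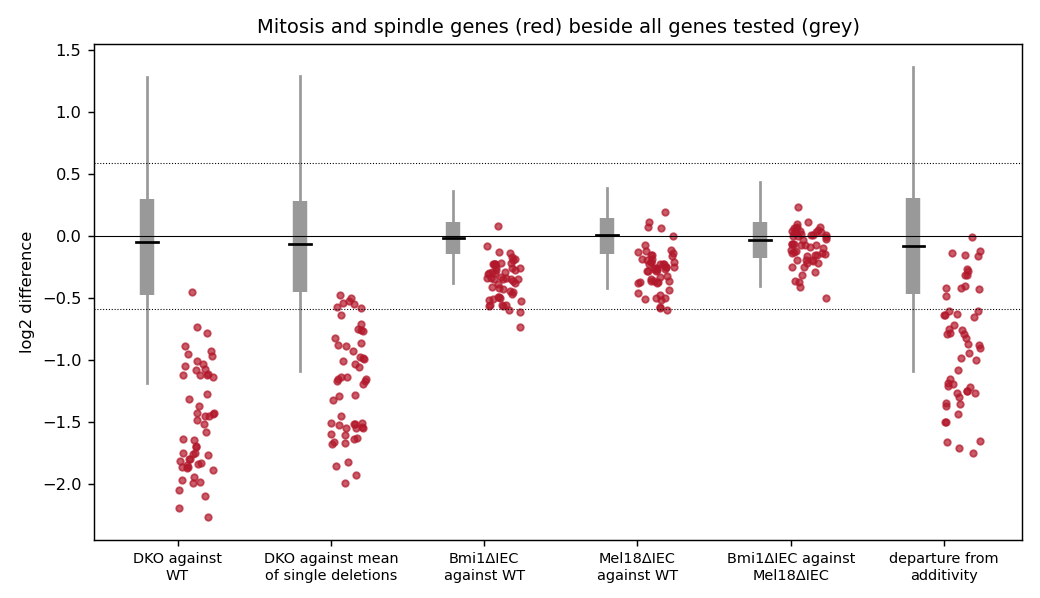
Log2 differences (vertical axis) of the 54 mitosis and spindle genes (red points) in 6 comparisons, beside all 12526 genes tested (grey box for the quartiles, grey line from the 5th to the 95th percentile, black bar for the median). Dotted lines mark 1.5-fold, and 53 of the 54 points lie below the lower line when DKO is set against WT, 47 when it is set against the mean of the single deletions, and none (0) for Bmi1ΔIEC against Mel18ΔIEC.

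Kinases and cyclins carried some of the largest differences: all 11 measured were lower on DKO than on WT, with a median of -1.79. Cdk1, the kinase whose activity defines mitosis, read 9.04 (log2 intensity) on DKO, 10.21 on Bmi1ΔIEC, 10.17 on Mel18ΔIEC and 10.74 on WT. DKO was lowest and the single deletions, close to each other, stood between it and WT, so that Cdk1 was 3.25-fold lower on DKO than on WT. Plk1, the polo kinase that acts from centrosome maturation to cytokinesis, read 8.62 on DKO, 10.44 on Bmi1ΔIEC, 10.45 on Mel18ΔIEC and 10.61 on WT. Here the single deletions differed from WT by -0.17 and -0.16, and DKO was 3.97-fold lower. Aurka, the kinase of centrosomes and spindle poles, read 7.81 on DKO, 9.27 on Bmi1ΔIEC, 9.36 on Mel18ΔIEC and 9.57 on WT, 3.38-fold lower on DKO. Plk4, which starts centriole duplication, gave the smallest difference of this role from the other 3 arrays, with 7.39 on DKO, 8.06 on Bmi1ΔIEC, 7.99 on Mel18ΔIEC and 8.50 on WT. Its single deletions stood about midway, at -0.45 and -0.51 from WT against -1.11 on DKO. The cyclins Ccna2 and Ccnb2 gave -1.88 and -1.74, and the mitotic kinases Pbk, Melk and Nek2 gave -2.10, -2.05 and -1.84. The Cdk1-activating phosphatases differed between themselves, with -1.79 for Cdc25c and -0.97 for Cdc25b. Cdc25c read 5.78 on DKO, under the floor of 6, so its difference rests on a signal near background.

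For the spindle checkpoint and anaphase onset the median was -1.40 and 7 of 8 genes were lower. Cdc20, which activates the anaphase-promoting complex, read 7.76 on DKO, 9.51 on Bmi1ΔIEC, 9.72 on Mel18ΔIEC and 9.72 on WT. Mel18ΔIEC equalled WT and DKO alone was low, 3.90-fold under WT. Among the checkpoint kinases and sensors, Bub1b gave -1.79, Ttk -1.64, Bub1 -1.48 and Mad2l1 -1.31. Bub3, which carries Bub1 and Bub1b to kinetochores, read 8.92 on DKO, 9.52 on Bmi1ΔIEC, 9.42 on Mel18ΔIEC and 9.70 on WT. Its difference of -0.79 from WT was less than those of its partners Bub1 and Bub1b. Pttg1, the securin that holds separase inactive, read 8.31 on DKO, 8.84 on Bmi1ΔIEC, 8.84 on Mel18ΔIEC and 8.76 on WT. DKO was again lowest, but by 1.36-fold, and both single deletions were slightly above WT. Separase itself, Espl1, gave -1.05.

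The chromosomal passenger complex corrects wrong attachments between kinetochores and microtubules and later directs cytokinesis, and all 4 of its genes were lower on DKO, with a median of -1.81. Aurkb, its kinase, read 8.70 on DKO, 10.28 on Bmi1ΔIEC, 10.21 on Mel18ΔIEC and 10.57 on WT, 3.65-fold lower. Birc5 (survivin), which brings the complex to chromatin, read 6.83 on DKO, 8.44 on Bmi1ΔIEC, 8.58 on Mel18ΔIEC and 8.69 on WT, 3.63-fold lower although its printed promoter holds neither motif. Incenp, the scaffold, read 7.45 on DKO, 8.30 on Bmi1ΔIEC, 8.45 on Mel18ΔIEC and 8.52 on WT. Its 2.10-fold difference was the smallest of the complex, with Cdca8 (borealin) at -1.75.

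At the centromere and kinetochore 8 of 8 genes were lower on DKO, by a median of -1.43. The NDC80 complex, the main microtubule coupler of the kinetochore, has 4 subunits, and all were on the list. Spc24 read 6.62 on DKO, 7.70 on Bmi1ΔIEC, 8.11 on Mel18ΔIEC and 8.05 on WT. Ndc80 read 6.98 on DKO, 7.47 on Bmi1ΔIEC, 7.46 on Mel18ΔIEC and 7.93 on WT. The subunits thus differed in pattern: for Spc24 the single deletions straddled WT, while for Ndc80 they stood midway between DKO and WT. Their differences from WT were -1.63 for Nuf2, -1.43 for Spc24, -1.01 for Spc25 and -0.95 for Ndc80. Cenpa, the histone H3 variant that marks centromeres, gave -1.43, and the kinetochore proteins Cenpf, Cenpn and Cenpe gave -1.52, -1.43 and -1.14.

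All 9 kinesin motors were lower, and their median of -1.82 was the lowest of any role. Kif22, a chromokinesin that pushes chromosome arms toward the spindle equator, read 6.39 on DKO, 8.23 on Bmi1ΔIEC, 8.39 on Mel18ΔIEC and 8.58 on WT. It was 4.56-fold lower on DKO than on WT, with the single deletions at -0.35 and -0.19 from WT. Kif23, the motor subunit of centralspindlin, read 8.94 on DKO, 9.48 on Bmi1ΔIEC, 9.56 on Mel18ΔIEC and 9.68 on WT, a 1.66-fold difference. The other motors ran from -1.98 for Kif20a, which acts in cytokinesis, and -1.94 for Kif2c, which depolymerises microtubules, to -0.93 for Kif20b. Kif11, which slides spindle poles apart, gave -1.86. Kif18a, which shortens microtubule ends to align chromosomes, was under the floor of 6 on DKO at 5.68.

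All 7 genes of spindle assembly and cytokinesis were lower on DKO, with a median of -1.69. Racgap1, the GTPase-activating subunit of centralspindlin, read 7.49 on DKO, 9.53 on Bmi1ΔIEC, 9.42 on Mel18ΔIEC and 9.75 on WT. At 4.81-fold it had the largest difference of the list, while its partner Kif23 had one of the smallest. Ect2, the exchange factor that Racgap1 recruits to start furrowing, read 9.10 on DKO, 9.80 on Bmi1ΔIEC, 9.90 on Mel18ΔIEC and 10.18 on WT, 2.11-fold lower. Prc1, which bundles microtubules at the midzone, gave -1.84, Tpx2, an activator of Aurka, -1.83, and the furrow protein Anln -1.69. Nusap1 and Hmmr, spindle microtubule proteins, gave -1.45 and -1.37.

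All 7 genes of chromosome structure were lower, and their median of -1.12 was the least negative of any role. Mki67, the Ki-67 antigen that coats mitotic chromosomes and marks cycling cells, read 9.89 on DKO, 10.99 on Bmi1ΔIEC, 11.06 on Mel18ΔIEC and 11.34 on WT. It was 2.73-fold lower on DKO than on WT, with the single deletions between. Top2a, the topoisomerase that untangles sister chromatids, read 9.19 on DKO, 9.98 on Bmi1ΔIEC, 9.95 on Mel18ΔIEC and 10.31 on WT, 2.17-fold lower. A dimmer probe set of Top2a, under the floor on all arrays, differed by -0.94 in the same direction. Ncapd2, a subunit of condensin I, read 7.57 on DKO, 9.20 on Bmi1ΔIEC, 9.20 on Mel18ΔIEC and 9.33 on WT, 3.40-fold lower. Smc2, a core subunit of both condensins, read 8.21 on DKO, 8.61 on Bmi1ΔIEC, 8.83 on Mel18ΔIEC and 9.10 on WT, 1.85-fold lower. Within condensin I the differences thus ranged from -1.77 for Ncapd2 through -1.27 for Ncaph, -1.12 for Smc4 and -1.03 for Ncapg to -0.89 for Smc2. Whether such differences between subunits lie in the RNA or in how their probe sets respond was not tested.

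With 1 gene deleted the same genes lay slightly below WT and seldom past 1.5-fold. On Bmi1ΔIEC, 53 of 54 were under WT with a median of -0.34, against -0.02 for all genes. At 1.5-fold, 3 were lower and 0 higher, beside 1.53% and 2.02% of all genes: Hmmr (-0.74), Cenpe (-0.61) and Pbk (-0.59). On Mel18ΔIEC, 50 of 54 were under WT with a median of -0.26, against 0.00 for all genes, and 1 was lower and 0 higher, beside 2.35% and 1.19%: Nuf2, at -0.59. Centring left 1 of the 3 on Bmi1ΔIEC, and loess raised the 1 on Mel18ΔIEC to 3. Both comparisons share the WT array. The single deletions did not separate from each other: 0 of 54 genes were 1.5-fold apart either way, beside 1.24% lower and 3.26% higher on Bmi1ΔIEC among all genes. Their median difference was -0.07, and 34 of 54 were lower on Bmi1ΔIEC than on Mel18ΔIEC, as were 56.2% of all genes. The largest gaps between them were -0.50 for Espl1 and 0.24 for Mad2l1.

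The difference on DKO exceeded the sum of the single deletions for most of the list. The departure from additivity (DKO minus Bmi1ΔIEC minus Mel18ΔIEC plus WT) had a median of -0.85 and was below 0 for all 54 genes, with 40 past 1.5-fold and 0 above it, beside 19.1% lower and 15.4% higher among all genes. Loess turned that split over all genes from 2392 lower and 1926 higher to 1776 and 2348, and centring to 1914 and 2308, shifting the median of all genes by 0.10 under each. For Cdc20 the single deletions summed to -0.22 on the log2 scale while DKO differed by -1.96, the largest departure of the list at -1.75. For Racgap1 the sum was -0.56 against -2.27, and for Plk1 the departure was -1.66. Cdk1 stood between, with a sum of -1.09 against -1.70. For Ndc80 the departure was -0.01, so that here DKO equalled the sum, and it was small for Smc2 (-0.12), Ncapg (-0.14), Kif20b (-0.15) and Plk4 (-0.16). This contrast uses each of the 4 arrays once.

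An additive model in limma was the only test that the layout allows. It has the departure as its residual, with 1 residual degree of freedom, and eBayes draws each gene's variance toward a variance shared over genes. The standard errors thus do not rest on a gene's own departure alone: for Ndc80, with a departure of -0.01, it was 0.22. The model has no replicate behind it. It called 0 of 12526 genes, and so 0% of them and 0 of the 54, for the average change with loss of Bmi1 or of Mel18 after Benjamini-Hochberg adjustment at 0.05. At an unadjusted p under 0.05 there were 324 genes, 12 of them of the list, for Bmi1 and 138, 7 of them of the list, for Mel18. The lowest adjusted p by limma among the list was 0.849 for loss of Bmi1 and 0.952 for loss of Mel18. The list's median estimates were -0.84 and -0.75 with a median standard error of 0.306, and all 54 estimates lay below 0 in both. Each estimate averages the change with the other gene present and with it deleted. For each gene both estimates add up to its difference of DKO from WT, so they are not separate evidence. With the other gene present, the medians were -0.34 for loss of Bmi1 and -0.26 for loss of Mel18. For Cdk1 the estimates were -0.83 ± 0.27 and -0.87 ± 0.27 (standard error, limma), and for Racgap1 -1.08 ± 0.48 and -1.19 ± 0.48.

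Other genes of the cycle were read from lists chosen with earlier results of these data known. Of 53 further genes expressed periodically toward mitosis, 50 were lower on DKO than on WT and 0 were higher, beside 20.2% and 14.3% of all genes. The median of these 53 was -1.28. They included the spindle gene Spag5 (-1.85), the cohesin protector Sgo1 (-1.83), Cdca3 (-1.89) and Iqgap3 (-1.97). DNA replication genes, which are switched on earlier in the cycle, had a median of -1.30 and 46 of 48 lower, among them the polymerase subunits Pold2 (-2.27) and Pole (-1.87), Gins1 of the replicative helicase (-2.03) and Tk1, which makes thymidine nucleotide (-1.89). The replication windows held a CHR in 14.9% and a CCAAT box in 59.6%. Among 10 cyclins and kinases of G1 and their regulators, 7 were lower (median -0.80), led by Skp2, which targets Cdk inhibitors for degradation (-1.56), and Ccne1, the cyclin of S phase entry (-1.45). Ccnd1 gave -0.95.

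Mitotic machinery that is present through the whole cycle differed less. Of 52 such genes, among them subunits of the anaphase-promoting complex, augmin and cohesin, 11 were lower on DKO and 1 was higher, and the median was -0.35 against -1.55 for the list. The lower ones were led by the augmin subunits Haus1 (-1.78), Haus7 (-1.31) and Haus4 (-1.23) and by Anapc5 (-1.18), and the higher one was the cohesin subunit Stag2 (0.74). These 11 of 52 are a share near the 20.2% of all genes. After centring the median was -0.21 with 7 lower, and after loess -0.28 with 8. Their windows held a CHR in 13.7% and a CCAAT box in 45.1%.

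Of 25 transcription factors of the cell cycle, 15 were lower on DKO than on WT and 0 higher (median -0.67), beside 20.2% and 14.3% of all genes. Against the mean of the single deletions the count was 9 lower and 2 higher (median -0.45), beside 18.8% and 14.0% of all genes. Nfyb, a subunit of NF-Y, was the highest at 0.78, a gene named after its values were seen. Foxm1 and Mybl2 (B-Myb), which act at the CHR late in the cycle, gave -1.64 and -1.62. Foxm1 read 6.66 on DKO, 7.89 on Bmi1ΔIEC, 7.98 on Mel18ΔIEC and 8.30 on WT, the same order of arrays as most of the list. E2f8 gave -1.70 and Myc -1.52, while E2f1 and E2f4, factors of the G1 to S step and of resting cells, gave -0.72 and -0.71. Myc also had DKO lowest and WT highest. Its single deletions, at -0.79 and -0.70 from WT, lay further below WT than the list's medians of -0.34 and -0.26. Its departure from additivity was -0.02, beside a median of -0.85 for the list and -0.01 for Ndc80. Loess left 11 of the 25 factors lower than on WT and centring 9.

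Among 16 inhibitors of division 7 were higher on DKO than on WT and 3 lower (median 0.41), beside 14.3% and 20.2% of all genes. Against the mean of the single deletions 3 were higher and 2 lower (median 0.27), beside 14.0% and 18.8%. Btg2, an antiproliferative gene, was at 1.26 and Gadd45b at 0.95, whereas the Cdk4 and Cdk6 inhibitor Cdkn2c (-1.64) and the Cdk1-inhibiting kinase Pkmyt1 (-0.96) were among the lower. Cdkn2a, the locus of p16 and p19 that Polycomb is known to silence, read 6.22 on DKO, 6.10 on Bmi1ΔIEC, 5.99 on Mel18ΔIEC and 5.78 on WT. All 4 values lie close to the floor, and the difference of 0.44 was short of 1.5-fold. The probe set of Cdkn1a carries more than 1 symbol and was not named.

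**Figure D4:**
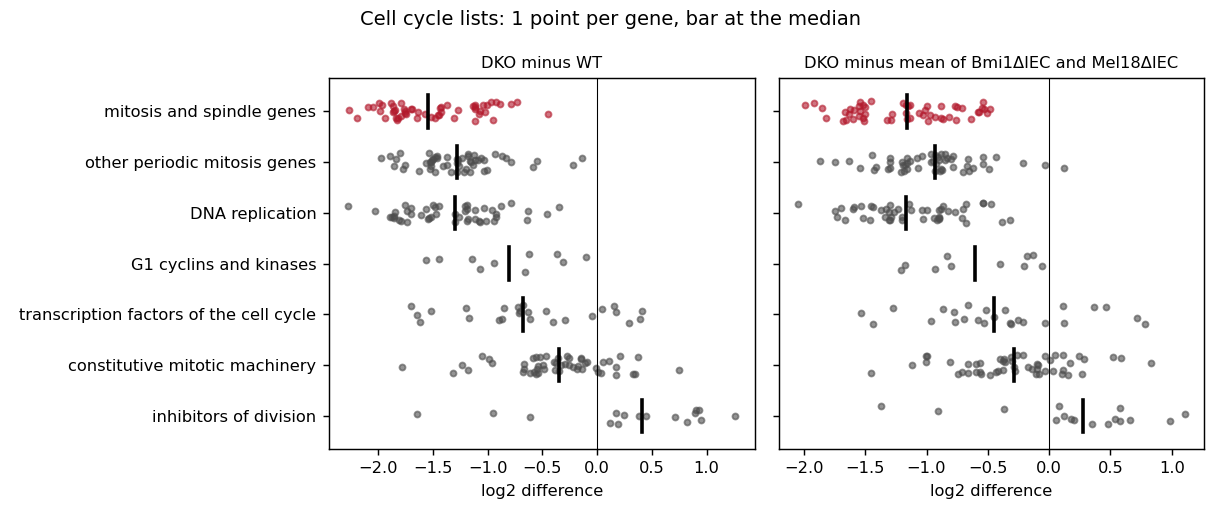
Log2 difference (horizontal axis) of DKO from WT (left) and from the mean of the single deletions (right) for the mitosis and spindle genes (red) and 6 other lists of the cell cycle (grey), 1 point per gene with a black bar at the median. Medians against WT run from -1.55 for the mitosis and spindle genes to -0.35 for constitutive machinery and 0.41 for inhibitors of division.

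Promoter letters did not sort the size of the difference within the list. The 32 measured genes with a CHR had a median of -1.58 on DKO against WT, the 13 without one -1.45, and the 9 with neither motif -1.45. The groups overlapped over nearly their whole range, from -2.27 to -0.73 with a CHR and from -2.05 to -0.45 without.

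Among epithelial markers, those of crypt progenitors were lower on DKO, as the mitosis genes were. Of 15 crypt progenitor markers 10 were lower on DKO than on WT and 0 higher (median -0.98), beside 20.2% and 14.3% of all genes. Their summed intensity was 5673 on DKO and 8515 to 9304 on the others. The lower ones were led by Ascl2 (-1.95) and Myb (-1.94). Of 17 pan-epithelial markers 1 was lower and 3 were higher (median 0.17), and their summed intensity on DKO was 1.10 of WT. The pan-epithelial share higher, 17.6%, was near the 14.3% of all genes. Of 17 mature colonocyte markers 7 (41.2%) were lower and 1 was higher (median 0.00), and their sum on DKO was 0.999 of WT. The median intensity of the colonocyte markers was also lowest on DKO, 10.91 against 11.17 to 11.49 on the others. Loess turned the colonocyte counts to 6 lower and 4 higher (median 0.23) and centring to 7 lower and 4 higher (median 0.14), and the pan-epithelial median became 0.38 and 0.31.

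Pan-leukocyte, neutrophil and mononuclear phagocyte transcripts were at their highest on DKO, where the mitosis genes were lowest. All 7 pan-leukocyte markers were higher than on WT (median 1.88), beside 14.3% of all genes. Their summed intensity was 12212 on DKO, 5441 on Bmi1ΔIEC, 2050.4 on Mel18ΔIEC and 3212 on WT. Of 14 neutrophil markers 13 were higher (median 2.21), with sums of 31903, 17403, 2488 and 7459 in that order. Higher, too, were 14 of 15 mononuclear phagocyte markers (median 2.22), 9 of 10 endothelial (0.99) and 7 of 9 fibroblast markers (0.79). T and NK cell and B and plasma cell markers had medians of 0.56 and 0.50. For B and plasma cell markers the median on Mel18ΔIEC was further above WT, at 0.84, with 4 of 7 higher there and 3 on DKO. The markers Tnfrsf19, Msi1, Mpo, Elane, Cd163, Cd3d, Cd8b1, Zap70, Klrb1c, Pax5, Cd22, Blk, Tek, Lum and Fap were under the floor on all 4 arrays. The part of these cells in the lower mitosis genes on DKO was not tested. Between the single deletions, 1 array each, neutrophil markers were higher on Bmi1ΔIEC by a median of 2.51 and pan-leukocyte markers by 1.23.

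**Figure D5:**
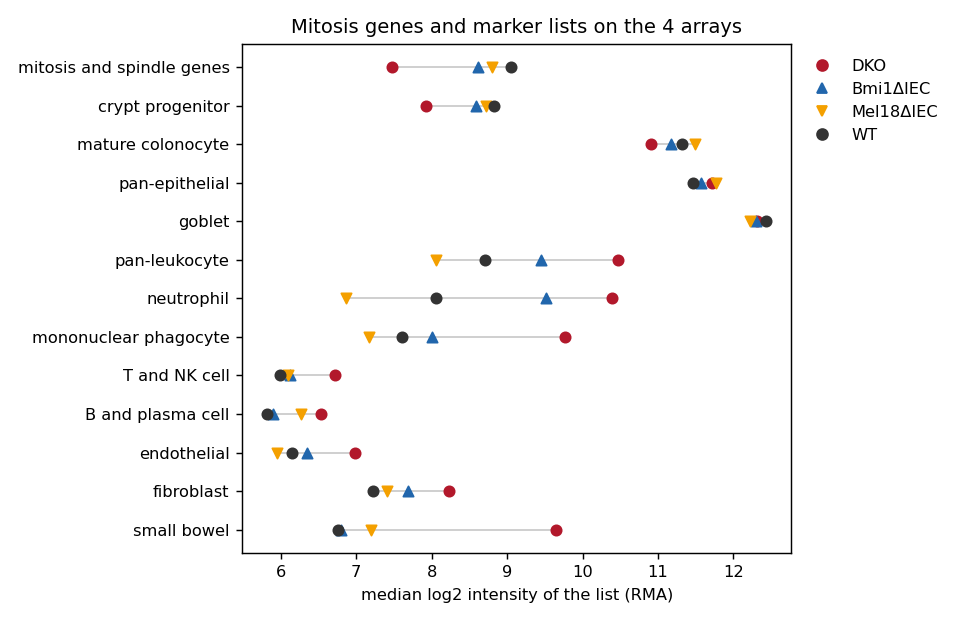
Median log2 intensity (horizontal axis) of the mitosis and spindle genes and of 12 marker lists on each array, with symbols as for the genes above (DKO red circle, Bmi1ΔIEC blue triangle, Mel18ΔIEC orange triangle, WT black circle). The mitosis genes and the crypt progenitor and mature colonocyte markers have their lowest median on DKO (colonocyte markers 10.91 against 11.17 to 11.49). Leukocyte, stromal and small bowel lists are highest there, and neutrophil markers separate the single deletions by 2.51 in median difference.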

How the data were processed

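Each of the 4 genotypes had 1 Mouse Gene 1.0 ST array of colon epithelial RNA. The deposited values are linear intensities, which the authors obtained with RMA in Affymetrix Expression Console (per the submitters' processing notes, which name no versions). RMA equalises the probe values of the arrays by quantiles, which can remove a shift shared by most genes; the deposited probe set medians still ran from 67.0 to 73.0. Log2 was taken. Of 35556 probe sets, 21789 carried 1 symbol in the platform annotation, 1621 several and 12146 were not listed. The brightest set of a gene was kept, with a floor of 6 (log2) on the highest array. Differences of at least 1.5-fold were counted without a test. The additive model used limma 3.58.1 in R 4.3.3, and the rest used Python 3.11.15, pandas 2.3.3 and numpy 2.4.6. The model was also run on simulated data that were additive, with small noise and a large change. That run does not show how the model behaves with the departures from additivity seen here. Values per array are given for the ends of each role by DKO minus the mean of the other 3, and for Mki67, Cdk1, Aurka, Aurkb, Plk1, Top2a and Bub3. Other lists give up to 4 genes with the largest difference of DKO from WT, and some regulators. Promoters are from RefSeq (GRCm38.p6). Genes, roles and lists were chosen with earlier results of these data known. Intensities carry no counts, and with so few arrays their number sets the precision. The alternatives left out the floor or raised it to 8, rescaled by cyclic loess or median centring, added 32 before log2, counted at 2-fold, averaged a gene's probe sets, let eBayes follow a trend, or took TTCGAA as a CHR too.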

Additional observations from a re-analysis of the deposited data

Results flagged for a closer look

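For 4 genes of the list the effect of a deletion had opposite signs with the other gene present and with it deleted, on the log2 scale and with 1 array in each cell, and the difference between the effects was not tested. Loss of Bmi1 gave 0.084 for Pttg1 with Mel18 present and -0.52 with Mel18 deleted. Loss of Mel18 gave 0.076 for Pttg1 with Bmi1 present and -0.53 with Bmi1 deleted. In the same order, loss of Mel18 gave 0.11 and -0.89 for Cdc25b, 0.20 and -0.74 for Espl1, and 0.063 and -1.09 for Spc24. The positive values lie close to the scaled median absolute deviation of 0.191 between the closest arrays or under it.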

How the results depend on the processing

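No paired analysis was possible because each genotype had 1 array and the labels give no replicate numbers. A median or difference was classed as moving little if it shifted by under 0.191 (log2), and a count if it stayed within a ratio of 1.5. Of 133 recomputed values of the comparisons, 125 were classed as moving little and 8 as moved. Many of these are counts of genes or windows, which have no direction, so a reversal could not be seen in them. The list's medians among them stayed below 0 under every alternative. Of 238 recomputed values for named genes, 231 were classed as moving little and 7 as moved, and all stayed below 0. Many of these could not move: the floor does not alter a gene's own difference, and averaging probe sets alters only Top2a. Without the floor, the list's medians and fold counts could not change either, as all 54 genes pass it. The number of the 54 genes lower on Bmi1ΔIEC than on WT, 3 as reported, was 1 after median centring, 1 with 32 added before log2 and 0 at 2-fold. For Mel18ΔIEC, 1 as reported, it was 3 after cyclic loess, 0 with 32 added and 0 at 2-fold. The median of DKO against WT was -1.34 with 32 added. The departure from additivity counted 22 genes lower and 0 higher at 2-fold, beside 6.43% and 8.19% of all genes. At 2-fold, 47 genes were lower on DKO than on WT and 0 higher, beside 8.19% and 7.33% of all genes. Against the mean of the single deletions 34 were lower and 0 higher, beside 6.51% and 7.33%. A floor of 8 kept 48 genes, 47 of them lower than on WT and 0 higher, beside 24.4% and 15.3% of all genes. A CHR of TTTGAA or TTCGAA was found in 75.5% of the list's windows and 19.2% of all windows. In limma, 0 genes were called without a floor, with a trend in eBayes or after centring. At an unadjusted limma p under 0.05 for loss of Bmi1, 17, 11 and 11 genes of the list passed, in that order. Among all genes tested, 471 of 19938, 398 of 12526 and 411 of 12526 passed. For loss of Mel18, 12, 5 and 7 of the list passed, beside 338, 164 and 178 of all genes. Probe sets near background limit Cdc25c and Kif18a, which were under the floor on DKO. Among named genes, adding 32 moved the differences of DKO from WT to -1.84 for Kif22, -1.61 for Birc5 and -1.19 for Spc24. Their differences from the single deletions moved too, and loess moved that of Mki67 to -0.94.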
